A study of Mus musculus with 7 samples.

Results

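The antioxidant and glutathione genes are a list of 40 mouse genes, chosen by symbol. They encode enzymes that remove superoxide and peroxides, and the thioredoxin and glutathione systems that supply some of these enzymes with electrons. Genes for glutathione transferases, heme oxygenases, a quinone reductase and the regulators NRF2 and KEAP1 are also on the list. All 40 are among the 23284 genes of the count table, and 39 passed the filter on low counts. Sod3, the gene for extracellular superoxide dismutase, had 0 counts in every library, which allows a level of up to 0.125 to 0.160 CPM (counts scaled by library size and composition) for counting error only. The measurements are RNA sequencing counts of hematopoietic stem cells (HSCs), the bone marrow cells from which all blood cells arise. The mice carried a green fluorescent reporter for Hdc, which encodes the enzyme that makes histamine. The reporter's bright fraction, Hdc-GFPhi, gave 3 libraries and its dim fraction, Hdc-GFPlo, gave 4, each from 500 sorted cells, and the comparison asks which genes differ between these fractions.

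All libraries share the C57BL/6 background, the tissue and the reporter, and the labels enter the names of the fractions under genotype as well. Hdc-GFPlo replicate 4 alone is labelled Hdc-GFP- in its sorted fraction. Age, sex, the number of animals per library, any treatment, the surface markers of the sort and the way the reporter was built are not stated in the sources used here. No source says that replicates came from separate animals. The p-values therefore reflect only the spread among these libraries, and that spread may be technical.

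Cells make superoxide and hydrogen peroxide as by-products of respiration and of oxidases. Superoxide dismutases turn superoxide into hydrogen peroxide, which catalase, glutathione peroxidases and peroxiredoxins then reduce. Glutathione and thioredoxin carry the electrons for the glutathione peroxidases and peroxiredoxins, drawn from NADPH. The transcription factor NRF2 raises many of the genes when KEAP1 stops marking it for degradation. HSCs are known to be sensitive to reactive oxygen species, which drive them out of quiescence.

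Libraries held 19606124 to 23688672 counts. Hdc itself was at 37.6, 18.7 and 33.9 CPM in Hdc-GFPhi, against 16.2, 16.7, 21.6 and 4.44 CPM in Hdc-GFPlo, with overlapping groups. All 12 listed HSC markers were detected, among them Kit, Meis1 and Hlf. The sum of the 12 was 3413 to 3774 CPM in Hdc-GFPhi libraries and 3907 to 4182 CPM in Hdc-GFPlo libraries. Kit had the highest level and the widest gap of the 12, with means of 1198 CPM in Hdc-GFPhi and 1590 CPM in Hdc-GFPlo. The gap between the sums therefore rests mainly on Kit and does not stand for the list. Log2 fold changes were positive for 4 of the 12 and negative for 8. Genes listed as markers of other blood cells were counted too, though some of the sums below rest mainly on a single gene. Sums over 10 neutrophil genes were 5923 to 8249 CPM in Hdc-GFPhi libraries and 2794 to 6832 CPM in Hdc-GFPlo libraries. Those over 7 myeloid progenitor genes were 433 to 2669 CPM in Hdc-GFPhi libraries and 141 to 1450 CPM in Hdc-GFPlo libraries. For 12 erythroid genes they were 1815 to 2541 CPM in Hdc-GFPhi libraries and 1859 to 2291 CPM in Hdc-GFPlo libraries, and Hba-a1, Hba-a2, Hbb-b1 and Hbb-b2 had 0 counts throughout. Car2 made up most of these erythroid sums, with means of 1962 CPM in Hdc-GFPhi and 1929.5 CPM in Hdc-GFPlo. The sums were 399.5 to 1024 CPM in Hdc-GFPhi libraries and 417 to 485 CPM in Hdc-GFPlo libraries for 8 eosinophil, basophil and mast cell genes. Gata2 made up most of them, with means of 401 CPM in Hdc-GFPhi and 413 CPM in Hdc-GFPlo. The highest sum was that of Hdc-GFPhi replicate 1, where Prg2 was at 520 CPM, against 0.499 and 3.65 CPM in Hdc-GFPhi replicates 2 and 3. Sums were 241 to 307 CPM in Hdc-GFPhi libraries and 212 to 251 CPM in Hdc-GFPlo libraries for 10 lymphocyte genes, of which the T cell gene Cd3e had 0 counts. For 7 megakaryocyte genes they were 793 to 1062 CPM in Hdc-GFPhi libraries and 502 to 835 CPM in Hdc-GFPlo libraries. In such bulk samples fewer cells of a type and less RNA per cell cannot be told apart.

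The antioxidant genes as a whole had similar mean levels in both fractions. In edgeR's quasi-likelihood test 0 of the 39 genes reached an adjusted p under 0.05, beside 0% of all 12917 tested genes, and the smallest adjusted p was 0.301, for Txnrd2. Limma with quality weights called 0 of the 39 as well, and 0% of all tested genes. DESeq2 called 0 of the 36 members to which it gave an adjusted p (none for Gpx3, Gpx8 and Mgst2), where it called 0.718% of its 9895 scored genes higher and 2.76% lower in Hdc-GFPhi. At an unadjusted edgeR p under 0.05 there were 3 members (Txnrd2 and Mgst2 higher, Cat lower), against 12.2% of all tested genes, 4.92% higher and 7.31% lower. That share lay below the background, so it is no result about the list.

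Fold changes were small and most intervals were narrow. The log2 fold change of Hdc-GFPhi over Hdc-GFPlo was positive for 24 members and negative for 15 (51.6% of all tested genes were positive), with a median of 0.04 beside 0.01 over all tested genes. The size of the log2 fold change was under 0.25 in either direction for 34 of 39 members. The 95% interval of the log2 fold change lay within 1 unit of 0, a 2-fold change, for 36 members and within 0.5 units for 29. Only Gpx3, Gpx8 and Mgst2 had intervals that reached past 1 unit, and these had the 3 lowest mean levels of the tested members. Within a group the members' CPM varied with a median coefficient of variation of 9.48%, against 17.2% over all tested genes, although the members were also more abundant (median level of 114 CPM against 37.7 CPM). Every Hdc-GFPhi library lay above every Hdc-GFPlo library for Txnrd2, Mgst2 and Hmox2, and below for Cat and Prdx4, that is 3 and 2 of 39, where the shares over all tested genes were 6.02% and 5.87%.

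**Figure D1:**
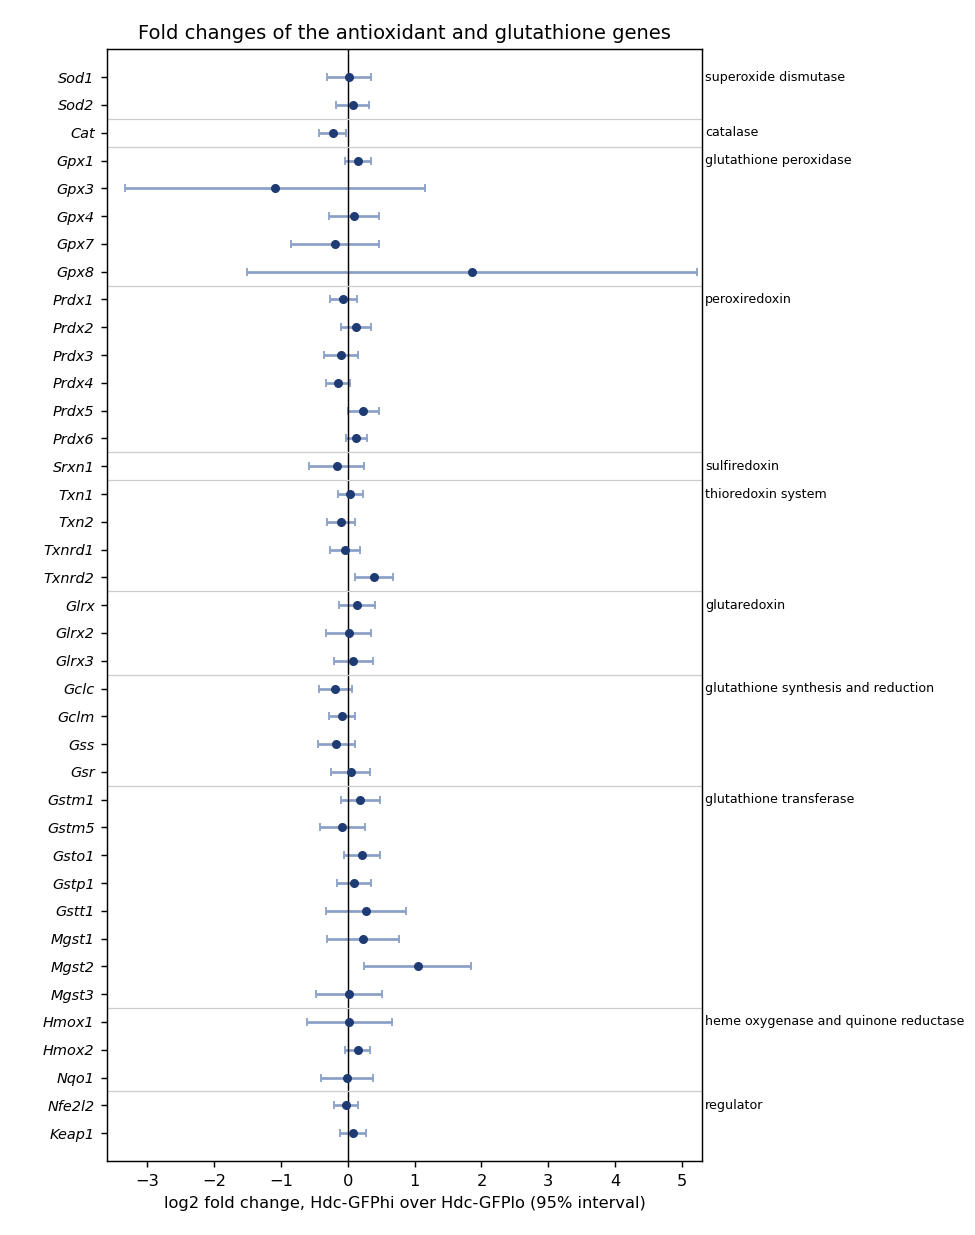
Log2 fold change of Hdc-GFPhi over Hdc-GFPlo for the 39 tested members with 95% intervals from the edgeR fit, grouped by role from top to bottom. Most intervals cross 0 and stay within 1 unit of it; those of Txnrd2 and Mgst2 lie above 0, that of Cat lies below 0, and those of Gpx3 and Gpx8 are the widest.

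Across genes, levels can be set side by side only per length, here as CPM per kilobase of annotated exon. On that scale Gpx1, the cytosolic glutathione peroxidase, stood first at 1808 ± 181 CPM per kilobase in Hdc-GFPhi and 1623 ± 130 CPM per kilobase in Hdc-GFPlo (SD, n = 3 and 4). Its lowest library, at 1459, lay above the highest library of the next gene, Prdx6, at 365 CPM per kilobase. Prdx6 itself averaged 349.6 in Hdc-GFPhi and 321 in Hdc-GFPlo, and Gsto1, Prdx1, Prdx2, Txn1 and Prdx3 followed with means of 157 to 224 in Hdc-GFPhi and means of 166 to 197 in Hdc-GFPlo, with ranges over libraries that overlapped between neighbours. At the low end in Hdc-GFPhi stood Gpx7 at 6.05 and 6.91, Gpx3 at 2.58 and 5.48, and Gpx8 at 1.98 and 0.542 CPM per kilobase in Hdc-GFPhi and Hdc-GFPlo. In Hdc-GFPlo, Mgst2 at 6.44 CPM per kilobase stood below Gpx7, with overlapping ranges. These CPM per kilobase rest on exon lengths from a build other than the one used for counting, and reads shared with processed copies of a gene can lower its count. Among the members, Prdx6 and Gpx4 have a pseudogene that carries their name in that annotation.

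**Figure D2:**
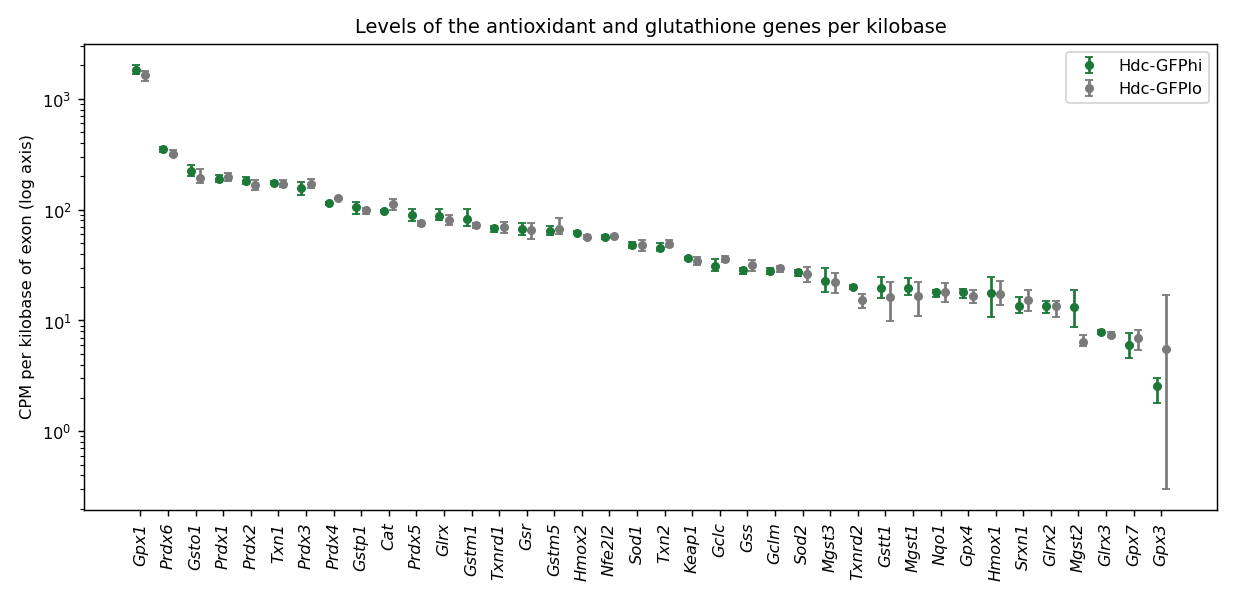
Mean CPM per kilobase of exon on a log axis for 38 members, with bars from the lowest to the highest library, Hdc-GFPhi left and Hdc-GFPlo right of each pair, ordered by the Hdc-GFPhi mean. Gpx1 stands above the rest at 1808 and 1623 CPM per kilobase, and the bars of the groups overlap for most genes; Sod3 and Gpx8, which had libraries at 0, are left out.

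The regulators overlapped between the fractions. Nfe2l2, the gene for NRF2, was at 145, 134 and 139.6 CPM in Hdc-GFPhi, against 136, 145, 145 and 144 CPM in Hdc-GFPlo. The groups overlapped, and the within-group coefficient of variation was 3.32% (log2 fold change of -0.03, SE 0.08, 95% interval -0.21 to 0.15, edgeR adjusted p = 0.905). Keap1, whose product holds NRF2 for degradation, was at 169.6, 163 and 158 CPM in Hdc-GFPhi, against 142, 151, 159 and 167 CPM in Hdc-GFPlo. Here too the groups overlapped, and the highest Hdc-GFPlo value was that of replicate 4 (log2 fold change of 0.08, SE 0.09, adjusted p = 0.757).

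NRF2 binds the antioxidant response element, whose core reads TGACNNNGC. RefSeq windows of 250 bases before to 50 after the start of a gene (build GRCm38.p6) were at hand for 35 members, and on either strand 8 of them (22.9%) held this core: Sod1, Prdx1, Srxn1, Txnrd1, Gclm, Gstm5, Mgst1 and Nfe2l2 itself. Over the 9229 tested genes with a window the share was 17.4%. The stretches around the core in Prdx1, Gclm, Txnrd1 and Nfe2l2 are shown because these members stand for the peroxiredoxin, glutathione and thioredoxin branches and for the regulator. Each is written 5′ to 3′ on the strand of its gene, and capitals mark the core, which in the first 3 lies on the opposite strand.
Prdx1: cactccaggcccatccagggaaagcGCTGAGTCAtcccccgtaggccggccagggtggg
Gclm: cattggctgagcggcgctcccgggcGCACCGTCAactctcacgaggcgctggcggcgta
Txnrd1: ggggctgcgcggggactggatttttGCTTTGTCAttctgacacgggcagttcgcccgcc
Nfe2l2: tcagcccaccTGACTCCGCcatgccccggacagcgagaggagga

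In GRCm38.p6 these stretches lie at chr4:116685441-116685499 and chr3:122245398-122245456 and chr10:82859089-82859147 on the forward strand and at chr2:75704870-75704913 on the reverse strand. Read from TGAC, the cores are TGACTCAGC in Prdx1, 133 bases before the start, TGACGGTGC in Gclm at 134 bases, TGACAAAGC in Txnrd1 at 92 bases and TGACTCCGC in Nfe2l2 at 240 bases. Some genes have several starts, and a gene was counted if any of its windows held the core. Txnrd1 also has windows at other starts, and those lack it. The 8 members with the core had log2 fold changes of -0.17 to 0.23 with a median of -0.06, and 2 of the 8 were positive. The 27 tested members whose windows lack it had a median of 0.08 and 19 positive values. A match in the window is a description of the sequence and not a binding site, and the difference between these lists was not tested. Nqo1 and Hmox1, textbook NRF2 targets, had log2 fold changes of -0.01 (SE 0.17) and 0.02 (SE 0.28). The Nqo1 window lacked the core, and no window was at hand for Hmox1.

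The superoxide dismutases overlapped between the fractions. Sod2, the mitochondrial manganese enzyme, was at 165, 148 and 168 CPM in Hdc-GFPhi, against 149, 131, 152 and 178 CPM in Hdc-GFPlo. The groups overlapped, and Hdc-GFPlo replicate 4 was the highest library (log2 fold change of 0.07, SE 0.11, 95% interval -0.18 to 0.32). Sod1, the cytosolic copper and zinc enzyme, averaged 31.0 ± 1.90 CPM in Hdc-GFPhi and 30.6 ± 3.02 CPM in Hdc-GFPlo (log2 fold change of 0.02, SE 0.15). The span of Sod1 overlaps that of Scaf4 on the opposite strand in the annotation.

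Cat, the gene for catalase, which splits hydrogen peroxide in peroxisomes, was at 253, 247 and 258 CPM in Hdc-GFPhi, against 290.3, 259.8, 310.0 and 324 CPM in Hdc-GFPlo. The Hdc-GFPhi libraries lay close together and below every Hdc-GFPlo library, although Hdc-GFPlo replicate 2 came close to the highest of them. The means were 253 ± 5.72 CPM in Hdc-GFPhi and 296 ± 27.97 CPM in Hdc-GFPlo, a log2 fold change of -0.23 (SE 0.09, 95% interval -0.43 to -0.02, edgeR adjusted p = 0.365). The unadjusted p stayed under 0.05 in 7 of 16 alternative fits and the log2 fold change was between -0.29 and -0.18 in all of them.

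Among glutathione peroxidases, which reduce peroxides with glutathione, Gpx1 and Gpx4 overlapped between the fractions, and the rare Gpx3 and Gpx8 scattered. Gpx1 was counted 48702, 42738 and 39742 times in Hdc-GFPhi, against 35807, 29364, 39337 and 39386 times in Hdc-GFPlo. Normalized, it was at 2154, 1777 and 1884 CPM in Hdc-GFPhi and at 1735, 1564, 1756 and 1903 CPM in Hdc-GFPlo. The groups overlapped because Hdc-GFPlo replicate 4 lay above 2 of the 3 Hdc-GFPhi libraries (log2 fold change of 0.16, SE 0.09, adjusted p = 0.493). Leaving out Hdc-GFPhi replicate 1 gave 0.07, and leaving out Hdc-GFPhi replicate 2 gave 0.22. The unadjusted p of Gpx1 was under 0.05 in 3 of 16 alternative fits. Gpx4, the selenoenzyme that reduces lipid peroxides in membranes, averaged 22.7 ± 2.05 CPM in Hdc-GFPhi and 21.4 ± 2.30 CPM in Hdc-GFPlo (log2 fold change of 0.09, SE 0.17).

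Gpx3, the secreted glutathione peroxidase, was counted 65, 111 and 102 times in Hdc-GFPhi, against 77, 508, 82 and 10 times in Hdc-GFPlo. Replicates 2 and 4 of Hdc-GFPlo held its highest and lowest values, and both lay outside the range of the Hdc-GFPhi libraries. The log2 fold change of -1.08 (SE 1.001) turned to 0.64 without Hdc-GFPlo replicate 2. Gpx8, an endoplasmic reticulum peroxidase, was counted 101, 7 and 31 times in Hdc-GFPhi, against 20, 0, 0 and 27 times in Hdc-GFPlo (log2 fold change of 1.86, SE 1.501). Gpx7, its relative in the same compartment, averaged 7.80 ± 2.04 CPM in Hdc-GFPhi and 8.90 ± 1.70 CPM in Hdc-GFPlo.

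Peroxiredoxins reduce peroxides through a reactive cysteine that thioredoxin mostly restores. The 6 members split evenly, with 3 positive and 3 negative log2 fold changes and a median of 0.03. Prdx4, the endoplasmic reticulum peroxiredoxin, was at 116, 110.0 and 113 CPM in Hdc-GFPhi, against 124, 126, 125 and 127 CPM in Hdc-GFPlo. The groups did not overlap, and its within-group coefficient of variation of 1.84% was the lowest of all tested members. The log2 fold change was nevertheless only -0.15 (SE 0.08, 95% interval -0.33 to 0.03, edgeR adjusted p = 0.486). Prdx5, found in mitochondria, peroxisomes and cytosol, was at 147, 113 and 128 CPM in Hdc-GFPhi, against 113, 109, 104 and 115 CPM in Hdc-GFPlo. Hdc-GFPhi replicate 2 fell within the range of Hdc-GFPlo, and Hdc-GFPhi replicate 1 stood highest (log2 fold change of 0.23, SE 0.11, edgeR adjusted p = 0.411). Prdx5 was at 0.13 on that scale without Hdc-GFPhi replicate 1 and at 0.32 without Hdc-GFPhi replicate 2. Its unadjusted p was under 0.05 in 4 of 16 alternative fits.

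Prdx6, the member that uses glutathione, averaged 873 ± 40.5 CPM in Hdc-GFPhi and 801 ± 42.9 CPM in Hdc-GFPlo (log2 fold change of 0.12, SE 0.07). Prdx1, the main cytosolic form, averaged 478 ± 38.8 CPM in Hdc-GFPhi and 500.0 ± 37.7 CPM in Hdc-GFPlo (-0.07, SE 0.09 on the log2 scale), and Prdx3, the mitochondrial form, 233 ± 32.2 CPM in Hdc-GFPhi and 250.1 ± 22.0 CPM in Hdc-GFPlo (-0.10, SE 0.11). Prdx2, abundant in red cells, was at 363, 314 and 334 CPM in Hdc-GFPhi, against 286, 278, 326 and 344 CPM in Hdc-GFPlo (0.13, SE 0.10). Its gene overlaps that of the immediate early factor Junb on the opposite strand in the annotation, and Junb was counted 7425, 3375 and 2248 times in Hdc-GFPhi, against 2245, 1661, 2370 and 3907 times in Hdc-GFPlo. Hdc-GFPhi replicate 1 and Hdc-GFPlo replicate 4 were the highest of their groups for both genes. These libraries were likewise the highest for some members whose spans overlap no other gene, Gpx1, Prdx6 and Glrx among them. That order is therefore not particular to Prdx2 and Junb. Rnaseh2a, also on the opposite strand, overlaps Prdx2 too and was at 0.004 (SE 0.12) on the log2 scale. The kit does not mark strand, so reads of these overlaps cannot be told apart. Their part in the Prdx2 values was not tested.

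Srxn1, the gene for sulfiredoxin, which repairs over-oxidized peroxiredoxins, was at 35.1, 32.8 and 46.1 CPM in Hdc-GFPhi, against 44.3, 34.2, 39.6 and 52.4 CPM in Hdc-GFPlo. The groups overlapped widely (log2 fold change of -0.17, SE 0.19, 95% interval -0.58 to 0.25, adjusted p = 0.762).

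In the thioredoxin system the mitochondrial reductase had the clearest difference, which did not pass the adjusted test. Txnrd2, which reduces thioredoxin in mitochondria, was counted 1506, 1674 and 1530 times in Hdc-GFPhi, against 1130, 838, 1340 and 1077 times in Hdc-GFPlo. Normalized, it was at 66.6, 69.6 and 72.5 CPM in Hdc-GFPhi and at 54.8, 44.6, 59.8 and 52.0 CPM in Hdc-GFPlo. Every Hdc-GFPhi library lay above every Hdc-GFPlo library, and the Hdc-GFPhi libraries were the tighter group.

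The means of Txnrd2 were 69.6 ± 2.96 CPM in Hdc-GFPhi and 52.8 ± 6.33 CPM in Hdc-GFPlo, a log2 fold change of 0.40 (SE 0.13, 95% interval 0.11 to 0.68). This was the member with the smallest p (edgeR adjusted p = 0.301; DESeq2 adjusted p = 0.0968), and it did not pass. Its unadjusted p was under 0.05 in all 16 alternative fits, between 0.00534 and 0.0391, with log2 fold changes of 0.32 to 0.46 and adjusted p of 0.0968 to 0.580. Txn2, the mitochondrial thioredoxin that Txnrd2 reduces, averaged 176 ± 15.8 CPM in Hdc-GFPhi and 190.0 ± 11.9 CPM in Hdc-GFPlo (-0.11, SE 0.09 on the log2 scale), the opposite sign. The cytosolic pair had log2 fold changes of -0.05 (SE 0.10) for the reductase Txnrd1 and 0.04 (SE 0.08) for the thioredoxin Txn1.

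**Figure D3:**
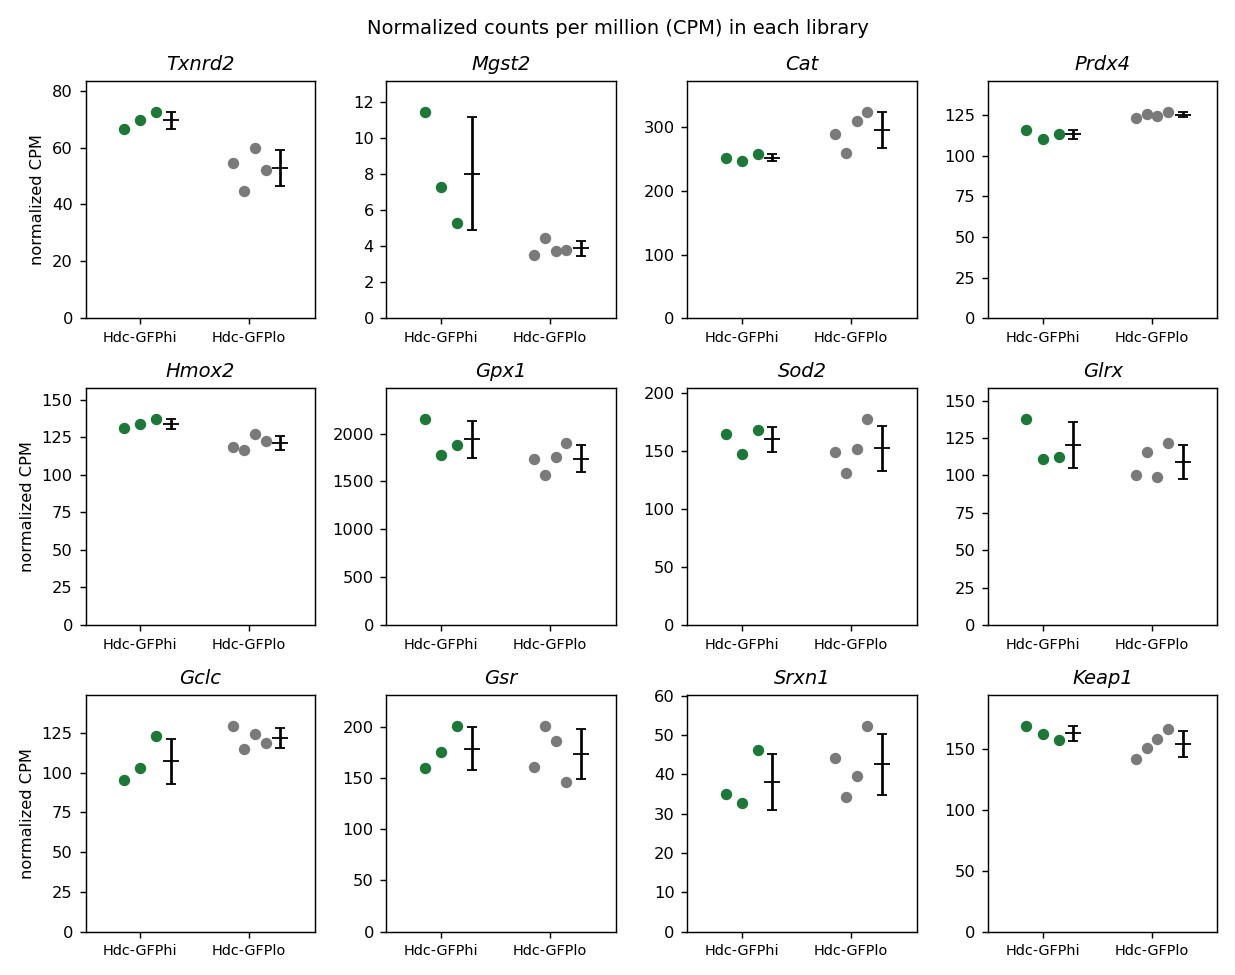
Normalized CPM in each library for 12 members, Hdc-GFPhi left and Hdc-GFPlo right, 1 point per library with the mean and SD beside the points, each axis from 0. The points of the groups are separate for Txnrd2, Mgst2, Cat, Prdx4 and Hmox2 and overlap in the other panels.

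Glutaredoxins, which use glutathione to reduce protein disulfides, overlapped between the fractions. Glrx, the cytosolic form, was at 138, 111 and 112 CPM in Hdc-GFPhi, against 100.2, 116, 98.8 and 122 CPM in Hdc-GFPlo. The groups overlapped, with Hdc-GFPhi replicate 1 highest (log2 fold change of 0.14, SE 0.12, adjusted p = 0.671). The mitochondrial Glrx2 was at 0.01 (SE 0.15) and the iron-sulfur protein Glrx3 at 0.08 (SE 0.13) on the log2 scale.

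The genes that make glutathione had slightly lower values in Hdc-GFPhi, none of them past the test. Gclc, the catalytic subunit of the rate-limiting glutamate-cysteine ligase, was at 95.4, 103 and 123 CPM in Hdc-GFPhi, against 129.5, 115, 124 and 119 CPM in Hdc-GFPlo. Hdc-GFPhi replicate 3 lay among the Hdc-GFPlo libraries and the other two lay below them (log2 fold change of -0.19, SE 0.11, 95% interval -0.43 to 0.06, adjusted p = 0.516). The log2 fold change of Gclc was -0.30 without Hdc-GFPhi replicate 3, at an unadjusted p under 0.05, and -0.11 without Hdc-GFPhi replicate 1. Gclm, the modifier subunit, had -0.09 (SE 0.09) and Gss, glutathione synthetase, -0.17 (SE 0.12). Gsr, the reductase that regenerates glutathione, was at 159, 175 and 201 CPM in Hdc-GFPhi, against 161, 201, 186 and 146 CPM in Hdc-GFPlo, and its groups overlapped widely (log2 fold change of 0.04, SE 0.13).

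Of the 8 glutathione transferases, which join glutathione to other molecules or act as peroxidases, 7 had positive log2 fold changes (median 0.20), 1 of them at an unadjusted p under 0.05. Mgst2, a microsomal transferase, was counted 259, 175 and 112 times in Hdc-GFPhi, against 73, 84, 84 and 78 times in Hdc-GFPlo. In CPM it was at 11.5, 7.28 and 5.31 in Hdc-GFPhi and at 3.54, 4.47, 3.75 and 3.77 in Hdc-GFPlo. The Hdc-GFPlo libraries were nearly equal, and the Hdc-GFPhi libraries lay above them and apart from each other.

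The log2 fold change of Mgst2 was 1.05 (SE 0.36, 95% interval 0.24 to 1.85, edgeR adjusted p = 0.311), and DESeq2 gave it no adjusted p. Without Hdc-GFPhi replicate 1 it was 0.70 and its unadjusted p was over 0.05. The summed level of the 7 myeloid progenitor genes followed the same order within Hdc-GFPhi, at 2669, 922 and 433 CPM in replicates 1 to 3, and was 712, 601, 1450 and 141 CPM in Hdc-GFPlo. Mpo was the largest part of the Hdc-GFPhi sums, at 1725, 566 and 226 CPM, while Csf1r and Cebpe did not follow that order. The order is not particular to this list, since the erythroid sums were 2541, 1908 and 1815 CPM in the same libraries. All 7 myeloid progenitor genes had positive log2 fold changes, as did all 10 tested neutrophil genes. The latter summed to 5923, 8249 and 6762 CPM in Hdc-GFPhi and 3338, 6832, 4280 and 2794 CPM in Hdc-GFPlo. The 6 tested lymphocyte genes and the 6 tested megakaryocyte genes were all positive as well. The part of any of these cell types in the Mgst2 values was not tested.

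The other transferases overlapped between the groups. Gsto1, an omega-class transferase, averaged 265 ± 29.0 CPM in Hdc-GFPhi and 229 ± 31.5 CPM in Hdc-GFPlo (log2 fold change of 0.21, SE 0.12). The log2 fold change of Gsto1 was 0.31 without Hdc-GFPlo replicate 4, at 275 CPM, and 0.12 without Hdc-GFPhi replicate 1. Its unadjusted p was under 0.05 in 3 of 16 alternative fits, the one without Hdc-GFPlo replicate 4 among them. Gstm1 was at 139.7 CPM in Hdc-GFPhi replicate 1 and at 98.0 and 99.4 CPM in the other two Hdc-GFPhi libraries, against 94.2 to 104 CPM in Hdc-GFPlo (0.19, SE 0.13). Gstt1 (0.27, SE 0.27), Mgst1 (0.23, SE 0.24), Gstp1 (0.09, SE 0.11) and Mgst3 (0.02, SE 0.22) were also positive on the log2 scale. Gstm5 was negative (-0.08, SE 0.15), with 84.5 CPM in Hdc-GFPlo replicate 4 and 59.3 to 70.8 CPM in all other libraries. Transferases of one class are close relatives, and reads that match several of them may be lost or split.

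Hmox2, the constitutive heme oxygenase, was at 131, 134 and 137 CPM in Hdc-GFPhi, against 118, 116, 127 and 122 CPM in Hdc-GFPlo. The groups were separate by a narrow margin (log2 fold change of 0.15, SE 0.08, 95% interval -0.04 to 0.33, edgeR adjusted p = 0.4996). Hmox1, the inducible form, was at 39.1, 26.9 and 16.8 CPM in Hdc-GFPhi, against 35.6, 25.5, 21.7 and 25.8 CPM in Hdc-GFPlo, so the Hdc-GFPhi libraries held both the highest and the lowest value. Leaving out Hdc-GFPhi replicate 1 gave Hmox1 a log2 fold change of -0.31. Nqo1, the quinone reductase, averaged 27.8 ± 2.17 CPM in Hdc-GFPhi and 28.1 ± 4.49 CPM in Hdc-GFPlo.

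Single libraries differed by small amounts in the typical level of the members. Hdc-GFPhi replicate 1 held the highest value for 15 of the 39 members and Hdc-GFPlo replicate 4 for 11, while Hdc-GFPlo replicate 2 held the lowest for 12 and Hdc-GFPhi replicate 2 for 10. The same counts were not taken over all tested genes, so these are no result about the list. The median deviation of the members from their own mean over libraries, on the log2 scale, was 0.09, -0.05 and 0.04 in Hdc-GFPhi and -0.05, -0.06, -0.02 and 0.07 in Hdc-GFPlo. The same median over all tested genes was between -0.01 and 0.01 in every library. The scaling by library size and composition holds that median near 0, so it is no yardstick for the members. Summed over all members the level was 7552, 6710 and 7206 CPM in Hdc-GFPhi and 6681, 6530, 6880 and 7353 CPM in Hdc-GFPlo, with overlapping groups.

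**Figure D4:**
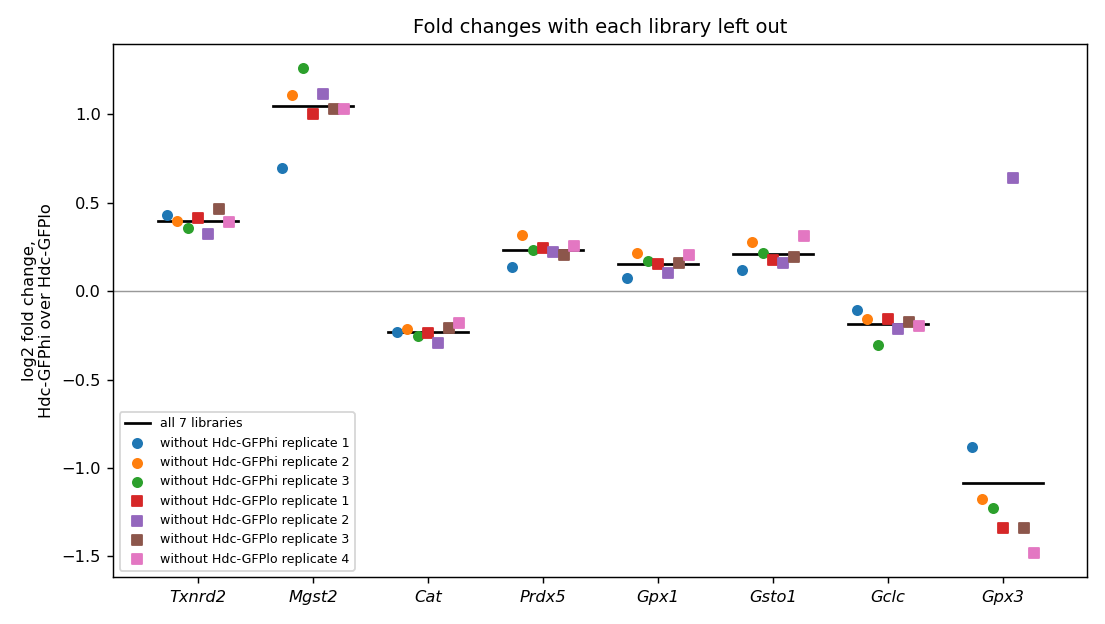
Log2 fold change of Hdc-GFPhi over Hdc-GFPlo with all 7 libraries (bar) and with each library left out (circles for Hdc-GFPhi, squares for Hdc-GFPlo) for 8 members. Txnrd2 stays between 0.32 and 0.46, Mgst2 drops to 0.70 without Hdc-GFPhi replicate 1, and Gpx3 turns to 0.64 without Hdc-GFPlo replicate 2.

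Related genes of the pathway, a separate list of 82 with 67 tested, also passed no edgeR test over all genes. At an unadjusted p under 0.05, 5 were higher and 5 lower in Hdc-GFPhi, 7.46% each, beside 4.92% higher and 7.31% lower over all tested genes, and the median log2 fold change was 0.05. DESeq2 called 0 higher and 2 lower, Oxr1 and Msrb3, or 3.57% of the 56 it scored, beside 2.76% of all genes it scored. These shares lay near the background, so the values of its single genes are no result about the list. Oxr1, known for protection against oxidative damage, was at 143, 152 and 139 CPM in Hdc-GFPhi, against 183, 192, 191 and 180.5 CPM in Hdc-GFPlo, and the groups were separate (log2 fold change of -0.37, SE 0.08, edgeR adjusted p = 0.226, DESeq2 adjusted p = 0.00160). Msrb3, a methionine sulfoxide reductase, was at 8.89, 3.20 and 2.70 CPM in Hdc-GFPhi, against 11.9, 18.2, 14.2 and 10.5 CPM in Hdc-GFPlo, again without overlap (-1.47, SE 0.44, edgeR adjusted p = 0.283, DESeq2 adjusted p = 0.0400).

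The other genes of that list at an unadjusted p under 0.05 were mixed in kind and direction. Cul3, the ubiquitin ligase scaffold that works with KEAP1, had a log2 fold change of -0.41 (SE 0.15), with overlapping groups. Chac1, which degrades glutathione, was counted 4, 2 and 1 times in Hdc-GFPhi, against 20, 62, 10 and 28 times in Hdc-GFPlo. Me1, malic enzyme, which makes NADPH, was counted 16, 35 and 31 times in Hdc-GFPhi, against 89, 360, 76 and 24 times in Hdc-GFPlo. Higher values were measured for the ferritin light chain Ftl1 (log2 fold change of 0.31, SE 0.11), the NADPH-making Idh1 (0.40, SE 0.16), Taldo1 of the pentose phosphate pathway (0.20, SE 0.09), the transferase Gstt2 (0.50, SE 0.21) and the methionine sulfoxide reductase Sepx1 (0.83, SE 0.35). Ftl1 was the member of these 5 whose groups did not overlap, at 673, 527 and 529.8 CPM in Hdc-GFPhi and 481, 420.1, 459 and 500.4 CPM in Hdc-GFPlo.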

How the data were processed

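Per the labels' protocols, RNA of 500 sorted cells was isolated with PicoPure, turned into cDNA by a SMARTer Ultra Low Input kit (a chemistry that keeps no strand) and built into libraries by Nextera XT. No molecular identifiers are mentioned, so intervals and floors cover counting error only. Per the submitters' processing notes, bcl2fastq 1.8.4, TopHat2, Bowtie2, HTSeq 0.6.1 and build mm9 were used. The sources used here do not give the annotation, strand setting or filters. Deposited values are raw counts per gene symbol, 1 column per library, matched to samples by library code.

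In R 4.3.3 with edgeR 4.0.16, filterByExpr (minimum count 10) kept 12917 of 23284 genes, scaled by TMM. The fractions were compared by the robust quasi-likelihood F test with group as the only term and Benjamini-Hochberg adjustment over all tested genes (threshold 0.05). Standard errors are the log2 fold change over the square root of F, and 95% intervals use the test's degrees of freedom. CPM are TMM-normalized. DESeq2 1.42.0 and limma 3.58.1 were alternatives, and the edgeR step was tested on simulated data. Exon lengths and overlaps of gene spans came from GENCODE M21 (GRCm38), promoters from RefSeq. Members and lists were chosen with earlier results of these data known. Per-library values are given for members at an unadjusted p under 0.05, called by DESeq2 or with separate groups, for the member with the smallest p and the most counted one of each other role, and for Gpx3, Gpx8, Gstm1, Hmox1, Nfe2l2, Prdx2 and Prdx5, chosen after their values were seen.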

Additional observations from a re-analysis of the deposited data

Results flagged for a closer look

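In the group of 4 Hdc-GFPlo libraries, 3 of 39 members had a library far from the other 3 by Dixon's test at 95%, which chance gives in about 1 in 20 groups. Gpx3 was at 27.1 CPM in replicate 2 and at 0.483 to 3.73 CPM in the others. Gstm5 was at 84.5 CPM in replicate 4 and at 59.7 to 63.0 CPM in the others, where its antisense neighbour 4933431E20Rik had 39 counts in replicate 4 and 65 to 104 in the others. Nfe2l2 was at 136 CPM in replicate 1 and at 144 to 145 CPM in the others, a gap that is large only beside the closeness of those 3. The summed level of 7 megakaryocyte genes was 793 to 1062 CPM in Hdc-GFPhi; in Hdc-GFPlo it was 835 CPM in replicate 4, the library labelled Hdc-GFP-, and 502 to 552 CPM in the others.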

How the results depend on the processing

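In all 16 alternative fits 0 members passed at an adjusted p of 0.05, but in 15 of them no gene at all passed (DESeq2 called 344), so this says little about the members; the median log2 fold change of the members stayed between 0.01 and 0.08. Members lower at an unadjusted p under 0.05 numbered 0, not 1, with upper quartile factors, with library totals only, with the replicate block, and with Hdc-GFPhi replicate 1 and Hdc-GFPlo replicate 4 both left out, and 0 to 2 with single libraries left out. The block fit also leaves out Hdc-GFPlo replicate 4, since Hdc-GFPhi has no library of that number. Without that library alone there were likewise 0 lower, so the change cannot be put down to the block. Members higher numbered 4, not 2, with the block and without that library, and 1 to 5 with single libraries left out (1 without Hdc-GFPhi replicate 1, 5 without Hdc-GFPlo replicate 4). The labels number the replicates but do not say whether same-numbered libraries are paired. Deviations of same-numbered libraries correlated at -0.06, -0.01 and -0.14 across genes, and those of differently numbered libraries at -0.12 to 0.13. So few libraries cannot settle whether the numbers mark pairs, and the block is given as an alternative only. Mgst2 had p over 0.05 in 3 fits, those with the block and without Hdc-GFPlo replicate 4, without Hdc-GFPhi replicate 1, and without both libraries.

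Signs turned in 34 of 622 fits of single members, in 10 members, and the cause was not tested. They were Nqo1 with upper quartile factors (0.017) and library totals (0.023), Nfe2l2 with library totals (0.0039), Gpx3 (0.10), Hmox1 (-0.064), Mgst3 (-0.088) and Sod1 (-0.00029) with limma, Gsr (-0.033), Gstm5 (0.049), Hmox1 (-0.050) and Mgst3 (-0.10) with the block and without Hdc-GFPlo replicate 4 (of these, Gsr, Gstm5 and Mgst3 also turned without that library alone), and Hmox1 (-0.35), Mgst3 (-0.33) and Sod1 (-0.021) without both libraries. With single libraries left out the log2 fold changes were -0.077 to 0.11 for Glrx2, -0.31 to 0.27 for Hmox1, -0.22 to 0.16 for Mgst3, -0.11 to 0.0039 for Txnrd1, -0.035 to 0.082 for Sod1, -0.061 to 0.12 for Gsr, -0.10 to 0.085 for Nqo1, -1.48 to 0.64 for Gpx3 and -0.17 to 0.054 for Gstm5. With at least 5 CPM in 3 libraries, Gpx3 and Gpx8 were not tested.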
